A study of Homo sapiens with 12 samples.

Results

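The genes described here are 26 genes of cholesterol synthesis and of its control by the transcription factor SREBP2. They were chosen by name and function, with earlier results of these data known. They are the lines of the count table whose gene symbol is one of the 26. All 26 were found among 40591 lines with a symbol, and all 26 passed the filter on low counts, which left 15179 genes to test. Libraries of poly(A) RNA came from ARPE-19, an established human line that arose from retinal pigment epithelium (RPE), the cell layer that supports the photoreceptors. The 12 libraries form 4 groups of 3. GFP, GSTA4 and OSK carry an introduced open reading frame (ORF) and were collected at 4 days of its expression, a time not given for WT. WT names ARPE-19 cells without a labelled ORF, and GFP a stable line with green fluorescent protein. GSTA4 names a stable line with glutathione S-transferase alpha 4, an enzyme that joins toxic lipid aldehydes to glutathione. OSK names a stable line with the reprogramming factors OCT4 (gene POU5F1), SOX2 and KLF4. Nothing in the labels gives the promoter of the ORFs, the number of clones behind a line, the culture medium or its serum, or the number of separate cultures behind each group of 3 libraries. The p-values therefore measure the spread between these libraries, and the effect of an ORF cannot be told apart from other differences between the lines.

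Cholesterol is built in the endoplasmic reticulum from acetyl-CoA. The mevalonate pathway leads to the prenyl diphosphates, which are joined to squalene, and squalene is closed to the ring of lanosterol and trimmed to cholesterol. SREBP2, encoded by SREBF2, is held in the endoplasmic reticulum by its escort SCAP and the retention proteins INSIG1 and INSIG2 while sterols are plentiful. When sterols run low, SCAP carries SREBP2 to the Golgi, where proteases free its DNA-binding part, which binds sterol regulatory elements (SRE) in most genes of the pathway, usually beside sites for NF-Y (CCAAT boxes) and Sp1 (GC boxes). INSIG1 and SREBF2 are themselves targets of SREBP2. In the retina, RPE cells take up, handle and export much of the cholesterol that reaches the photoreceptors.

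Promoters of 5 genes are shown because their transcripts mark the range of behaviour described below. They are SREBF2, the regulator itself, INSIG1 and MSMO1, which moved most between the lines, LSS, which was lower in both ORF lines, and INSIG2, which barely moved. Each run is the 250 bases before a RefSeq transcription start on GRCh38.p14, written from 5′ to 3′ on the strand of the gene. Capitals mark matches to the classic SRE, the SRE core (CACNCCAC, which the classic SRE contains), the E-box palindrome (TCACGTGA) and CCAAT, on either strand. The SREBF2 run is chr22:41832855-41833104 on the plus strand, and INSIG1 is chr7:155297628-155297877 on the plus strand. MSMO1 is chr4:165327419-165327668 on the plus strand and LSS is chr21:46228775-46229024 on the minus strand. INSIG2 is chr2:118088221-118088470 on the plus strand, upstream of the first of its starts.
SREBF2: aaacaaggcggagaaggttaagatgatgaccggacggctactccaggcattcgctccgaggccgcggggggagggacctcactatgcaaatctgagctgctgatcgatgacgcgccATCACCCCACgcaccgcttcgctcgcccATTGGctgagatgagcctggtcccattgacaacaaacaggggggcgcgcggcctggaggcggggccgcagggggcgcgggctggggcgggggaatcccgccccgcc
INSIG1: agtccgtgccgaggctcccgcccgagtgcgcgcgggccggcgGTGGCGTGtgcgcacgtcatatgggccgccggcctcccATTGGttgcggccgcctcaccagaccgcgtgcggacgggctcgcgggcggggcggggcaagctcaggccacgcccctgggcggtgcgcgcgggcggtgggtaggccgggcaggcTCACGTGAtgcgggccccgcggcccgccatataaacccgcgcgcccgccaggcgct
MSMO1: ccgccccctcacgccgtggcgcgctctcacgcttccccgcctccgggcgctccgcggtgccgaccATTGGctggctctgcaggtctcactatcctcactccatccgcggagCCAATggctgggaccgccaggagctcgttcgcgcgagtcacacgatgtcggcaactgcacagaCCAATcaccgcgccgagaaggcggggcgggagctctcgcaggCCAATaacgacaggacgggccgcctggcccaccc
LSS: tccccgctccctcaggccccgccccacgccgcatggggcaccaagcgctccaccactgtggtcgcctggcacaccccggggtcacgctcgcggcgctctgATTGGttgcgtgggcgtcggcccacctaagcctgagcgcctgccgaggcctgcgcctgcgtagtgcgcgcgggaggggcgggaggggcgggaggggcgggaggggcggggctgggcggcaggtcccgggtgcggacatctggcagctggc
INSIG2: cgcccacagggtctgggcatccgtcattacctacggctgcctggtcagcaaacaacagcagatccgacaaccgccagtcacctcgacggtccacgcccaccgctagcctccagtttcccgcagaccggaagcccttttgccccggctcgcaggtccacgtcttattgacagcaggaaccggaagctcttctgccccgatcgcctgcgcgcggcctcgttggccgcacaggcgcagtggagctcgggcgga

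SREBF2 carried the whole of the classic SRE, from 134 to 125 bases before its start, with an inverted CCAAT box that begins 106 bases before the start. INSIG1 carried an SRE core on the minus strand, an inverted CCAAT box and the E-box palindrome, the last of these from 56 to 49 bases before the start. MSMO1 carried 4 CCAAT boxes, LSS carried 1, and INSIG2 carried none. Promoters were found in RefSeq for 23 of the 26 genes, all but ACAT2, FDFT1 and SQLE, and 6 of the 23 have more than 1 start. Counting every start, 18 of 23 genes (78.3%) had a CCAAT box on either strand, against 37.0% of 27305 genes with a promoter in RefSeq and 41.3% of the 11273 of them that were tested here. GC boxes (GGGCGG) were found in 21 of 23 genes, against 73.5% of the tested genes. The SRE core was found in IDI1, SC5D, INSIG1 and SREBF2, which is 17.4% of the 23 against 6.52% of the tested genes. TCACGTGA was found in INSIG1 alone among the 23 and in 1.95% of the tested genes, and the classic SRE in SREBF2 alone among the 23 and in 0.0444% of the tested genes. A match describes letters in this window and is not a measured binding site.

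**Figure D1:**
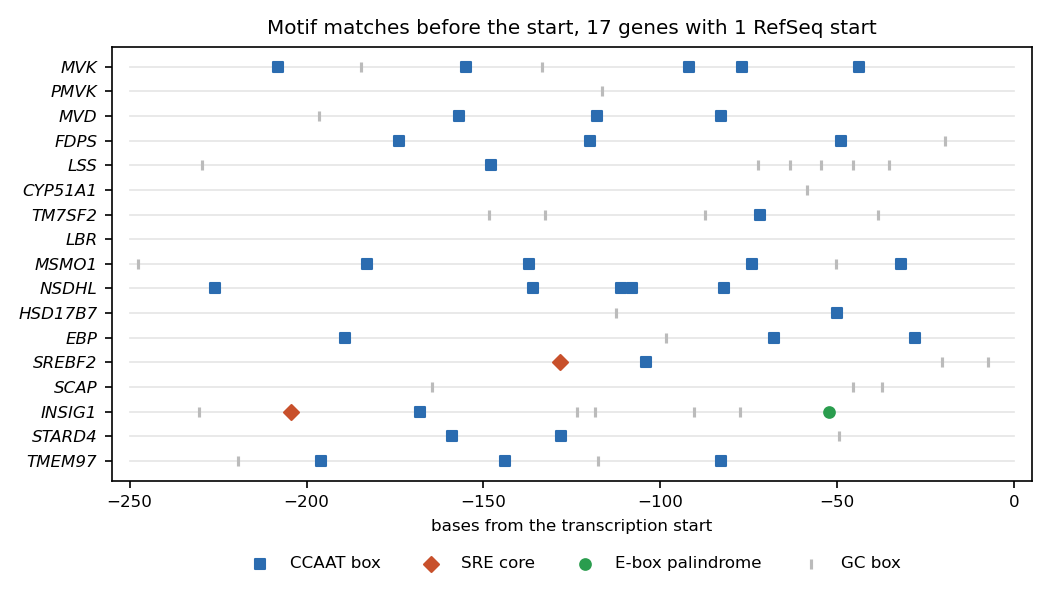
Positions of motif matches in the 250 bases before the start (horizontal axis, bases from the transcription start) for the 17 sterol genes with 1 RefSeq start, 1 gene per line. Squares are CCAAT boxes, diamonds SRE cores, the circle the E-box palindrome and ticks GC boxes, and SRE cores appear for SREBF2 and INSIG1.

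Library depth ran from 12630675 to 17045454 reads. The ORF genes fit the labels: GSTA4 stood at 416 ± 17.6 CPM (reads per 1000000 of TMM-scaled library size, mean ± SD, n = 3) in the GSTA4 line against 8.79 ± 0.849 in GFP, and POU5F1 at 779 ± 26.8 in OSK and at most 0.380 in any library of the other groups. By edgeR's quasi-likelihood test, GSTA4 RNA was also higher in OSK against GFP, by 1.20 on the log2 scale (SE 0.127, adjusted p 1.33e-07). In GFP against WT it was higher by 0.68 (SE 0.153, adjusted p 0.00355). The pigment enzymes TYRP1 and TYR, which mark RPE cells, were present in every group (TYR at 11.9 ± 0.928 CPM where it was lowest, in GSTA4), while TTR had 0 reads in GSTA4 and at most 4 in any library. The summed level of 13 RPE markers ran over 2570 to 2789 CPM in WT and 2322 to 2663 in GFP. It was lower, at 1760 to 1835, in GSTA4, and at 1509 to 1568 in OSK. Single markers did not all follow the sum: of 12 tested, 8 were called higher and 2 (KRT8 and KRT18) lower in GFP against WT, while LRAT and TJP1 were called higher and 8 lower in GSTA4 against GFP. All 12 were called lower in OSK against GFP. Over all genes tested, 11% were called higher and 11.2% lower in GFP against WT, and 14.7% and 14.6% in GSTA4 against GFP. In OSK against GFP, 22.8% of all genes tested were called lower. The part of these markers in the sterol values was not tested. Immune markers (3 genes) summed to at most 0.836 CPM and endothelial markers (2 genes) to at most 1.82 CPM in any library, and none of them passed the filter. Among 6 fibroblast markers COL1A1 and PDGFRB passed the filter, and LUM had 0 reads in every library. Of 6 pluripotency markers only DNMT3B passed it. GFP replicate 1 stood apart, where 27349 named genes had a read, while the remaining 11 libraries had reads on 19488 to 22073. It was kept, and the counts without it are given beside the results.

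The sterol genes were lowest in the GSTA4 line and highest in the OSK line, with the 2 control groups between them. The 26 genes together held 2233, 2079.5 and 2003 CPM in WT replicates 1 to 3 and 2252, 2449 and 2453 in GFP. In the ORF lines they held 1597, 1553 and 1518 in GSTA4 and 3149, 3285 and 3261 in OSK. The groups did not overlap in this sum, and WT replicate 1 and GFP replicate 1 stood next to each other. Mean levels followed the order OSK, GFP, WT, GSTA4 from high to low in 19 of the 26 genes. The plot of levels by library shows the same order gene by gene.

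**Figure D2:**
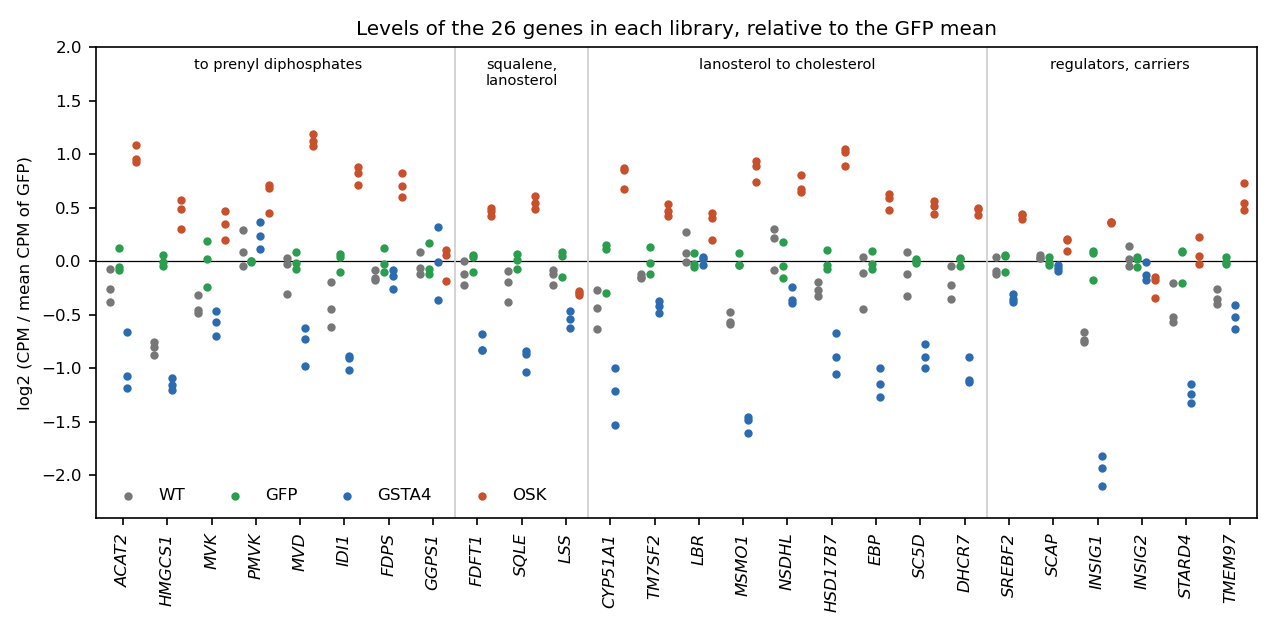
Level of each of the 26 genes in each library, as log2 of CPM over the mean CPM of the 3 GFP libraries, with 3 dots per group and the genes ordered by pathway step. The OSK dots lie above the GFP dots for 22 genes and the GSTA4 dots below them for 21, while LSS and INSIG2 have OSK dots below the GFP dots.

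Against GFP, 20 of the 26 genes fell in the GSTA4 line and 0 rose, at an adjusted p under 0.05 by edgeR's quasi-likelihood test over all 15179 genes. Over all genes tested, 14.6% were called lower and 14.7% higher in this comparison. At an unadjusted p under 0.05, 21 were lower and 1 (PMVK) higher, and DESeq2 called 20 lower and 0 higher. The median log2 fold change of the 26 was -0.77, against 0.01 over all genes tested. INSIG1 changed most, with 3.85-fold less RNA in GSTA4, and MSMO1 came next at 2.86-fold less. On the log2 scale, 7 genes fell by 1 or more (HMGCS1, CYP51A1, MSMO1, EBP, DHCR7, INSIG1 and STARD4), against 4% of all genes tested. The 6 genes that did not pass the test were PMVK, GGPS1, FDPS, LBR, INSIG2 and SCAP. The GSTA4 and GFP libraries did not overlap in 21 genes with GSTA4 lower and in PMVK with GSTA4 higher, where 19.9% and 22.4% of all genes tested did so. Without GFP replicate 1 the same count of 20 genes was called lower. In a bulk sample, fewer cells with a transcript and less of it per cell cannot be told apart.

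In OSK against GFP, 22 of the 26 genes rose, 2 fell (LSS and INSIG2) and 2 did not pass the test (GGPS1 and STARD4). DESeq2 called 21 higher and 1 lower, without MVK and INSIG2. Over all genes tested, 23.1% were called higher and 22.8% lower. The median of the 26 was 0.49 and that of all genes tested was -0.02. MVD rose most and was the only one of the 26 past a log2 fold change of 1, which 5.07% of all genes tested passed upward. The libraries did not overlap in 22 genes with OSK higher and in 2 with OSK lower, against 27.5% and 27.2% of all genes tested. Without GFP replicate 1, 21 genes were called higher and 1 lower. Scaling by library size alone shifted all genes down, to 2761 called higher and 4180 lower in place of 3508 and 3454, and left 20 of the 26 called higher and 2 lower. The comparisons of GSTA4 and of OSK with GFP share the 3 GFP libraries, so their values are given side by side and not as independent evidence.

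OSK against GSTA4 compares the ORF lines with no control shared. Here 24 of the 26 genes were higher in OSK and 0 lower, against 24.1% and 23.8% of all genes tested. DESeq2 and edgeR at an unadjusted p under 0.05 also gave 24 higher and 0 lower. The 2 that did not pass the test were GGPS1 and INSIG2. The median of the 26 was 1.28, and 16 genes differed by at least 1, against 7.14% of all genes tested that were higher by that much. MSMO1 differed by 2.37 (SE 0.0709, adjusted p 2.53e-16) on the log2 scale, 5.18-fold, and INSIG1 by 2.31 (SE 0.0808, adjusted p 2.92e-15), 4.95-fold. The OSK and GSTA4 libraries did not overlap in 24 genes, all with OSK higher, where 28.8% of all genes tested did so.

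**Figure D3:**
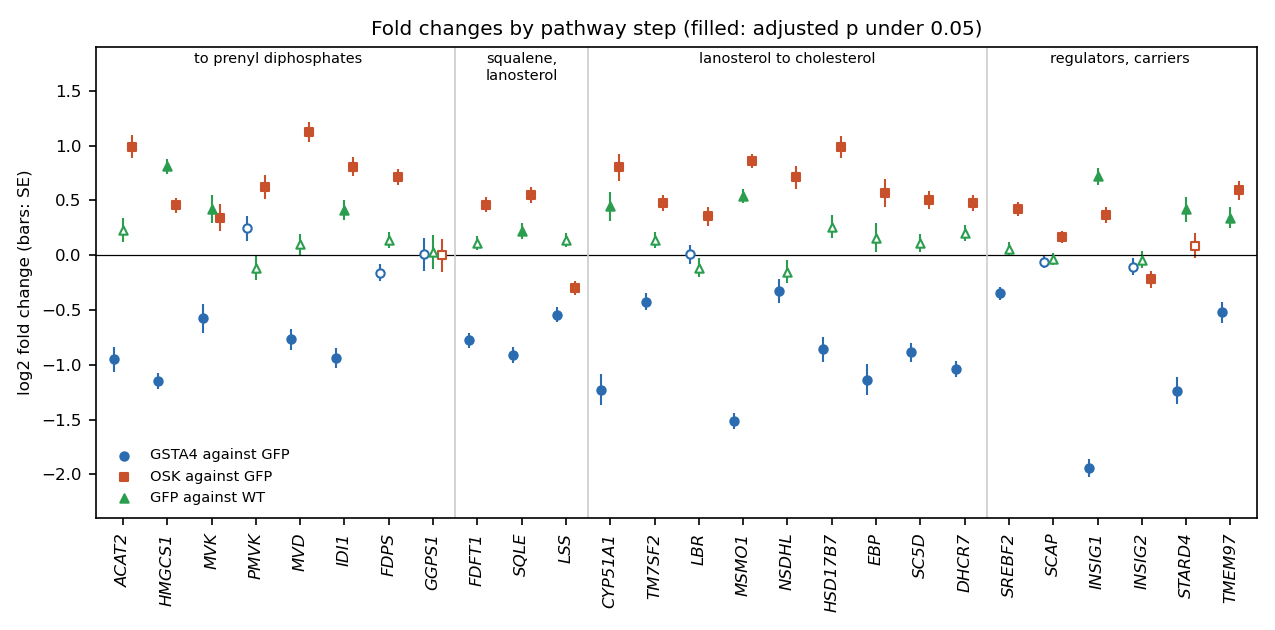
Log2 fold change of each of the 26 genes (vertical axis, bars are 1 SE) in GSTA4 against GFP (circles), OSK against GFP (squares) and GFP against WT (triangles), with filled symbols at an adjusted p under 0.05. Filled circles lie below 0 for 20 genes, filled squares above 0 for 22 and below 0 for LSS and INSIG2, and filled triangles above 0 for 9.

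In the steps from acetyl-CoA to the prenyl diphosphates, 5 of 8 genes fell in GSTA4 and 7 of 8 rose in OSK, both against GFP, with medians of -0.67 and 0.67. Over all genes tested, 14.6% were called lower in GSTA4, and 23.1% higher and 22.8% lower in OSK. The same shares apply to the counts of the steps and regulators that follow. ACAT2, the cytosolic thiolase that starts the pathway, stood at 36.0, 31.6 and 29.1 CPM in WT, 35.8, 41.1 and 36.5 in GFP, 23.8, 18.0 and 16.6 in GSTA4, and 72.0, 80.0 and 73.4 in OSK. Every OSK library was above every other library and every GSTA4 library below. Its log2 fold change was -0.95 (SE 0.114, adjusted p 2.01e-06) in GSTA4 and 0.99 (SE 0.105, adjusted p 1.35e-07) in OSK. HMGCS1, which makes HMG-CoA, stood at 71.2, 68.9 and 65.4 CPM in WT, 117, 119 and 125 in GFP, 56.5, 54.0 and 52.4 in GSTA4, and 148, 178 and 169 in OSK. Its 4 groups did not overlap, with GFP far above WT and closer to OSK. HMGCS1 changed by -1.15 (SE 0.0706, adjusted p 9.49e-11) in GSTA4 and by 0.46 (SE 0.0671, adjusted p 1.13e-05) in OSK on the log2 scale.

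MVD, the decarboxylase that yields isopentenyl diphosphate, stood at 44.8, 46.6 and 36.9 CPM in WT, 43.6, 45.2 and 48.4 in GFP, 29.7, 27.7 and 23.1 in GSTA4, and 96.6, 104 and 99.4 in OSK. WT and GFP overlapped, every GSTA4 library was lower and every OSK library was far above the controls. The log2 fold changes of MVD were -0.77 (SE 0.0971, adjusted p 3.96e-06) in GSTA4 and 1.13 (SE 0.0906, adjusted p 2.28e-09) in OSK. IDI1, the isomerase that readies that product for chain growth, stood at 58.2, 49.0 and 43.5 CPM in WT, 62.0, 69.8 and 68.5 in GFP, 33.0, 36.3 and 35.6 in GSTA4, and 109.5, 119 and 123 in OSK. No group of IDI1 overlapped another, in the order GSTA4, WT, GFP, OSK from low to high. It changed by -0.94 (SE 0.0915, adjusted p 1.11e-07) in GSTA4 and by 0.81 (SE 0.0860, adjusted p 1.43e-07) in OSK on the log2 scale.

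The other 4 genes of these steps were less uniform. MVK, the first kinase of mevalonate, ranged from 9.66 to 11.4 CPM in GSTA4 and 13.2 to 17.9 in GFP to 17.9 to 21.7 in OSK, and the highest GFP library lay just under the lowest OSK library. It fell by 0.58 on the log2 scale in GSTA4 (adjusted p 0.002) and rose by 0.34 in OSK (adjusted p 0.0277). The call in OSK was lost without GFP replicate 1 (adjusted p 0.147), without GFP replicate 2 (0.0528), and without OSK replicate 2 (0.124) or OSK replicate 3 (0.0581). It was also lost when scaling by library size alone (adjusted p 0.066) and with DESeq2 (adjusted p 0.0505). PMVK, the next kinase, rose in OSK by 0.62 (SE 0.108, adjusted p 8.03e-05). In GSTA4 it was the one sterol gene whose 3 libraries all lay above GFP, at 18.3 to 21.7 against 16.8 to 17.0 CPM, a log2 difference of 0.24 (SE 0.110, adjusted p 0.105). FDPS, which makes farnesyl diphosphate, rose in OSK by 0.71 (SE 0.0741, adjusted p 1.03e-07), while GSTA4 at 56.7 to 64.2 CPM overlapped GFP at 63.4 to 74.0 CPM. GGPS1, which lengthens farnesyl to geranylgeranyl diphosphate for protein prenylation and so leads away from sterols, had log2 fold changes of 0.00832 (SE 0.152, adjusted p 0.976) in GSTA4 and -0.000511 (SE 0.152, adjusted p 0.998) in OSK. Its level was 12.5 ± 0.913 CPM in WT and 12.8 ± 1.42 in GFP, then 12.9 ± 3.00 in GSTA4 and 12.8 ± 1.35 in OSK (SD, n = 3), and all groups overlapped.

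The first steps given over to sterols are those of squalene and lanosterol, with 3 genes. All 3 fell in GSTA4, with a median of -0.78, while 2 rose and LSS fell in OSK. FDFT1, squalene synthase, stood at 168, 155 and 143 CPM in WT, 156, 174 and 173 in GFP, 105, 94.3 and 94.4 in GSTA4, and 237, 224 and 232 in OSK. WT and GFP overlapped, and both lay between GSTA4 and OSK. FDFT1 changed by -0.78 (SE 0.0681, adjusted p 2.07e-08) in GSTA4 and by 0.46 (SE 0.0663, adjusted p 8.23e-06) in OSK on the log2 scale. SQLE, the epoxidase that prepares squalene for closure, stood at 101, 83.2 and 94.4 CPM in WT, 103, 109 and 113 in GFP, 60.4, 59.1 and 52.7 in GSTA4, and 152, 157 and 164 in OSK. GSTA4 and OSK were clear of both controls on either side. The log2 fold changes of SQLE were -0.91 (SE 0.0752, adjusted p 8.05e-09) in GSTA4 and 0.55 (SE 0.0720, adjusted p 2.75e-06) in OSK.

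LSS, lanosterol synthase, closes the ring and behaved differently from its neighbours in the pathway. It stood at 227, 221 and 206 CPM in WT, 217, 248 and 255 in GFP, 165, 174 and 155 in GSTA4, and 195, 193 and 198 in OSK. GSTA4 was lowest, OSK lay just above it, and both were below every GFP and WT library. LSS fell by 0.54 on the log2 scale in GSTA4 (SE 0.0659, adjusted p 2.32e-06) and by 0.30 in OSK (SE 0.0655, adjusted p 8.76e-04). OSK still exceeded GSTA4, by 0.24 (SE 0.0660, adjusted p 0.00423). Against WT in place of GFP, the difference of LSS in OSK was -0.16 (SE 0.0655, adjusted p 0.0582), past the threshold no longer. LSS lies near the end of the long arm of chromosome 21. Of its 18 tested neighbours there, 11 were called lower and 3 higher in OSK against GFP, with a median log2 fold change of -0.47. Over all genes tested, 22.8% were called lower and 23.1% higher in that comparison. In GSTA4 against GFP the same neighbours had a median of -0.06, against -0.54 for LSS.

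From lanosterol to cholesterol, 8 of 9 genes fell in GSTA4 and 9 of 9 rose in OSK, with medians of -0.88 and 0.57. CYP51A1, the P450 enzyme that takes the first methyl group off lanosterol, stood at 15.1, 19.5 and 17.3 CPM in WT, 19.1, 25.9 and 25.3 in GFP, 11.8, 10.1 and 8.12 in GSTA4, and 37.5, 42.9 and 42.3 in OSK. Every OSK library exceeded every control and every GSTA4 library lay below them. The log2 fold changes of CYP51A1 were -1.23 (SE 0.141, adjusted p 1.10e-06) in GSTA4 and 0.80 (SE 0.125, adjusted p 2.32e-05) in OSK. MSMO1, NSDHL and HSD17B7 form the complex that then removes the next pair of methyl groups. MSMO1, the oxidase of that complex, stood at 70.7, 66.0 and 65.4 CPM in WT, 95.6, 103 and 95.5 in GFP, 35.8, 35.0 and 32.1 in GSTA4, and 164, 182 and 187 in OSK. Its 4 groups did not overlap, and wide gaps lay between them. MSMO1 changed by -1.52 (SE 0.0712, adjusted p 1.66e-12) in GSTA4 and by 0.86 (SE 0.0655, adjusted p 1.05e-09) in OSK on the log2 scale.

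NSDHL, the dehydrogenase of that complex, stood at 33.8, 35.6 and 27.3 CPM in WT, 28.1, 32.9 and 25.9 in GFP, 24.5, 22.6 and 22.1 in GSTA4, and 45.4, 50.8 and 46.2 in OSK. GSTA4 lay just below GFP, and OSK was clear of all the others. NSDHL changed by -0.33 (SE 0.108, adjusted p 0.0266) in GSTA4 and by 0.71 (SE 0.103, adjusted p 9.18e-06) in OSK. The fall in GSTA4 was lost without GFP replicate 2 (adjusted p 0.15), GSTA4 replicate 2 (0.0827) or GSTA4 replicate 3 (0.0955). HSD17B7, the ketoreductase of the complex, stood at 16.4, 15.5 and 14.9 CPM in WT, 18.2, 20.1 and 17.7 in GFP, 10.0, 9.01 and 11.8 in GSTA4, and 37.9, 38.6 and 34.5 in OSK. The OSK libraries stood far above the rest, and no group of HSD17B7 overlapped another. It changed by -0.86 (SE 0.111, adjusted p 5.27e-06) in GSTA4 and by 0.99 (SE 0.100, adjusted p 7.43e-08) in OSK.

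EBP, the sterol isomerase, stood at 13.6, 12.3 and 9.68 CPM in WT, 13.0, 12.5 and 14.1 in GFP, 5.97, 6.60 and 5.50 in GSTA4, and 18.4, 19.9 and 20.5 in OSK. WT and GFP overlapped, and every GSTA4 library lay far below both. Its log2 fold changes were -1.14 (SE 0.143, adjusted p 3.78e-06) in GSTA4 and 0.57 (SE 0.128, adjusted p 0.00109) in OSK. SC5D, the desaturase that follows, stood at 83.6, 72.5 and 62.9 CPM in WT, 79.8, 78.6 and 77.6 in GFP, 39.5, 42.4 and 46.0 in GSTA4, and 116, 112 and 107 in OSK. GSTA4 and OSK were apart from the controls in opposite directions. SC5D changed by -0.88 (SE 0.0870, adjusted p 1.21e-07) in GSTA4 and by 0.50 (SE 0.0828, adjusted p 4.11e-05) in OSK on the log2 scale. DHCR7, the reductase that makes cholesterol from its last precursor, stood at 186, 165 and 150.2 CPM in WT, 186, 195 and 196 in GFP, 103, 88.0 and 89.4 in GSTA4, and 259, 272 and 269.5 in OSK. WT reached the lowest GFP library, and no other groups met. DHCR7 changed by -1.04 (SE 0.0751, adjusted p 1.12e-09) in GSTA4 and by 0.47 (SE 0.0726, adjusted p 1.91e-05) in OSK.

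TM7SF2 and LBR encode the pair of sterol reductases that act after CYP51A1, and LBR is also a receptor for lamin B in the inner nuclear membrane. TM7SF2 fell in GSTA4 by 0.42 on the log2 scale (adjusted p 2.01e-04) and rose in OSK by 0.47 (adjusted p 1.88e-05). LBR ranged from 36.9 to 40.3 CPM in GFP and 37.4 to 39.4 in GSTA4 to 44.0 to 52.4 in OSK. LBR rose in OSK by 0.36 (SE 0.0863, adjusted p 0.00205), and its log2 fold change in GSTA4 was 0.00906 (SE 0.0876, adjusted p 0.954). For LBR the GSTA4 and GFP libraries overlapped, and for TM7SF2 they did not.

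Of the 6 regulators and carriers, 4 fell in GSTA4, and 4 rose and 1 fell in OSK, with medians of -0.43 and 0.27. SREBF2 stood at 611, 548 and 555 CPM in WT and 552, 613 and 616 in GFP, and at 478, 464 and 456 in GSTA4 and 778, 801 and 804 in OSK. The controls overlapped and the ORF lines did not reach them. SREBF2 fell by 0.35 on the log2 scale in GSTA4 (adjusted p 1.94e-04) and rose by 0.42 in OSK (adjusted p 9.55e-06). SCAP, its escort, ranged from 123 to 128 CPM in GSTA4 to 139.9 to 151 in OSK. SCAP rose by 0.17 in OSK (adjusted p 0.0161). That call was lost when scaling by library size alone (adjusted p 0.161), against WT (0.0555) and without OSK replicate 2 (0.0603).

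The retention proteins INSIG1 and INSIG2 diverged. INSIG1 stood at 66.3, 70.8 and 67.4 CPM in WT, 98.9, 119 and 118 in GFP, 31.7, 29.4 and 26.1 in GSTA4, and 143, 145 and 144 in OSK. Its 4 groups did not overlap. INSIG1 changed by -1.94 (SE 0.0810, adjusted p 2.71e-13) in GSTA4, the strongest change of the 26, and by 0.36 (SE 0.0732, adjusted p 3.89e-04) in OSK. INSIG2 stood at 51.1, 53.2 and 57.9 CPM in WT, 54.0, 50.5 and 53.4 in GFP, 46.4, 48.2 and 52.2 in GSTA4, and 47.5, 41.5 and 46.5 in OSK. GSTA4 overlapped both controls, and OSK lay slightly under GFP. Its log2 fold changes were -0.10 (SE 0.0775, adjusted p 0.341) in GSTA4 and -0.22 (SE 0.0778, adjusted p 0.0244) in OSK. The fall in OSK was lost with DESeq2 (adjusted p 0.0519), with no filter (0.0891), and without GFP replicate 1 (0.069), GFP replicate 3 (0.0688) or OSK replicate 2 (0.152). The printed INSIG2 promoter held none of the sterol motifs searched and no CCAAT box, while that of INSIG1 held an SRE core, an E-box and a CCAAT box. MSMO1 and HMGCS1 held neither an SRE core nor the E-box, and CYP51A1 held none of these motifs. The part of the motifs in the levels of these genes was not tested.

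STARD4, a soluble carrier that moves cholesterol between membranes, stood at 22.4, 18.0 and 17.4 CPM in WT, 27.4, 22.4 and 27.6 in GFP, 10.9, 11.6 and 10.3 in GSTA4, and 26.8, 30.1 and 25.3 in OSK. GSTA4 fell clear below the others, while OSK overlapped GFP. STARD4 changed by -1.24 (SE 0.122, adjusted p 1.27e-07) in GSTA4, and its difference in OSK was 0.0873 (SE 0.112, adjusted p 0.553). Against WT, STARD4 rose in OSK by 0.51 (SE 0.114, adjusted p 9.80e-04). TMEM97, a membrane protein of the endoplasmic reticulum that binds the cholesterol transporter NPC1, stood at 20.3, 21.7 and 19.6 CPM in WT, 25.8, 26.7 and 25.5 in GFP, 16.8, 18.1 and 19.5 in GSTA4, and 36.3, 43.2 and 37.9 in OSK. No group of TMEM97 overlapped another, although the highest GSTA4 library lay just under the lowest WT library. It changed by -0.52 (SE 0.0953, adjusted p 2.92e-04) in GSTA4 and by 0.59 (SE 0.0900, adjusted p 1.73e-05) in OSK.

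The control line also differed from WT. In GFP against WT, 9 of the 26 genes were higher and 0 lower, against 11% and 11.2% of all genes tested. At an unadjusted p under 0.05, 13 were higher and 0 lower, and DESeq2 called 9 higher and 0 lower. Called by edgeR were HMGCS1, MVK, IDI1, SQLE, CYP51A1, MSMO1, INSIG1, STARD4 and TMEM97. HMGCS1 led with 0.81 (SE 0.0693, adjusted p 9.67e-08) on the log2 scale, followed by INSIG1 with 0.72 (SE 0.0753, adjusted p 1.41e-06) and MSMO1 with 0.54 (SE 0.0674, adjusted p 1.11e-05). The median over the 26 was 0.15. In 8 genes every GFP library was above every WT library, against 16.9% of all genes tested. The count rested on single libraries more than those of the other comparisons: it was 5 without GFP replicate 3, and 6 without GFP replicate 2 or without WT replicate 3. Without GFP replicate 1 it was 10. MVK, SQLE, CYP51A1 and STARD4 were the genes that lost their call when 1 library was left out. SQLE also lost it with no filter (adjusted p 0.0687) and with the 6 libraries compared alone (0.0756).

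Measured against WT instead, 18 of the 26 genes fell in GSTA4 and 0 rose, where 19% of all genes tested were lower and 19.7% higher. In OSK against WT, 22 rose and INSIG2 fell, where 22.7% of all genes tested were higher and 22.7% lower. MVK and TMEM97, called lower in GSTA4 against GFP, were not called against WT. Their log2 differences were -0.15 (SE 0.132, adjusted p 0.388) for MVK and -0.18 (SE 0.0963, adjusted p 0.155) for TMEM97. INSIG1 fell by 1.23 (adjusted p 2.61e-10) and MSMO1 by 0.97 (adjusted p 1.25e-09) in GSTA4 against WT. HMGCS1 fell by only 0.34 there (adjusted p 8.71e-04), after its fall of 1.15 against GFP.

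Genes of the cell division cycle also differed between the groups, but in another order. Relative to the WT mean, the median log2 level of the 26 sterol genes was 0.15, 0.21 and 0.21 in the GFP libraries, -0.41, -0.48 and -0.48 in the GSTA4 libraries and 0.64, 0.73 and 0.73 in the OSK libraries. For 10 proliferation genes it was 1.69, 1.78 and 1.69 in GFP, 1.47, 0.96 and 1.31 in GSTA4, and 2.75, 2.93 and 3.10 in OSK. The GSTA4 line was thus below WT for the sterol genes and above it for the proliferation genes. MKI67, a marker of dividing cells, rose from 10.4 ± 3.09 CPM in WT to 57.8 ± 1.28 in GFP, and stood at 42.8 ± 3.98 in GSTA4 and at 154 ± 11.8 in OSK (SD, n = 3). The proliferation genes fell in 8 of 10 cases in GSTA4 against GFP and rose in 10 of 10 in OSK against GFP, as did 10 of 10 in GFP, GSTA4 and OSK each against WT. Over all genes tested, 14.6% were called lower in GSTA4 and 23.1% higher in OSK, both against GFP. Against WT, 11% of all genes tested were called higher in GFP, 19.7% in GSTA4 and 22.7% in OSK. The part of the proliferation genes in the sterol result was not tested.

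**Figure D4:**
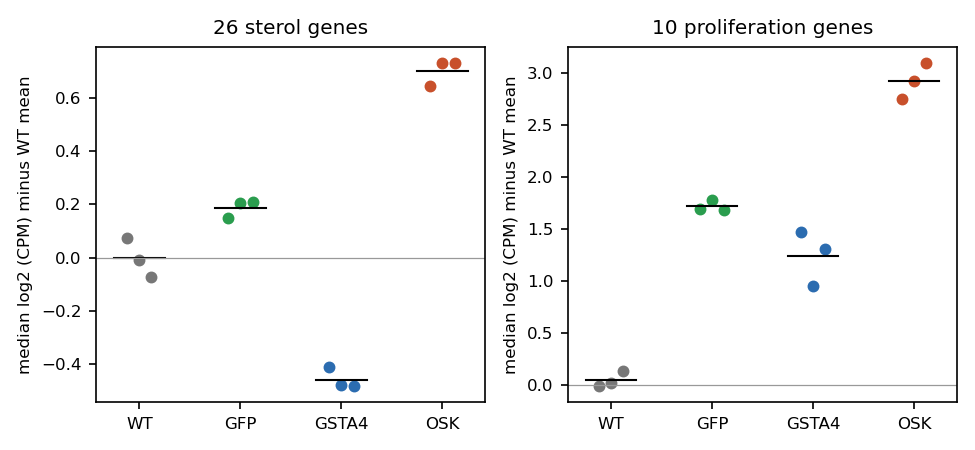
Median over the 26 sterol genes (left) and over 10 proliferation genes (right) of each library's log2 CPM minus the WT mean, with 1 dot per library and a bar at the group mean. GSTA4 dots lie from -0.48 to -0.41 for the sterol genes and from 0.96 to 1.47 for the proliferation genes, and OSK is highest in both.

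For each sterol gene, the nearest 10 tested genes on each side in the RefSeq order, leaving out the 26, were taken. Their median log2 fold change ran from -0.19 (around STARD4) to 0.16 (around MVD) in GSTA4 against GFP, and from -0.48 (around FDFT1) to 0.25 (around SREBF2) in OSK against GFP. The sterol gene was further from 0 than the median of its neighbours in 24 of 26 cases in GSTA4, all but GGPS1 and LBR. The same held for 22 of 26 in OSK, all but GGPS1, FDFT1, LSS and STARD4, and for 23 of 26 in GFP against WT. A median over many genes mostly lies nearer 0 than a single gene does, so these counts do not set the sterol genes apart from other genes. Around FDFT1 on chromosome 8 the neighbours' median in OSK was -0.48, with 8 of 20 called lower, while FDFT1 itself rose by 0.46. Around STARD4 on chromosome 5 it was -0.46, with 9 of 20 called lower. Around SREBF2 on chromosome 22, 11 of 20 neighbours were called higher in OSK. Over all genes tested, 22.8% were called lower and 23.1% higher in OSK against GFP. Copy number was not measured, and its part in the values of LSS, STARD4 and SREBF2 was not tested.

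**Figure D5:**
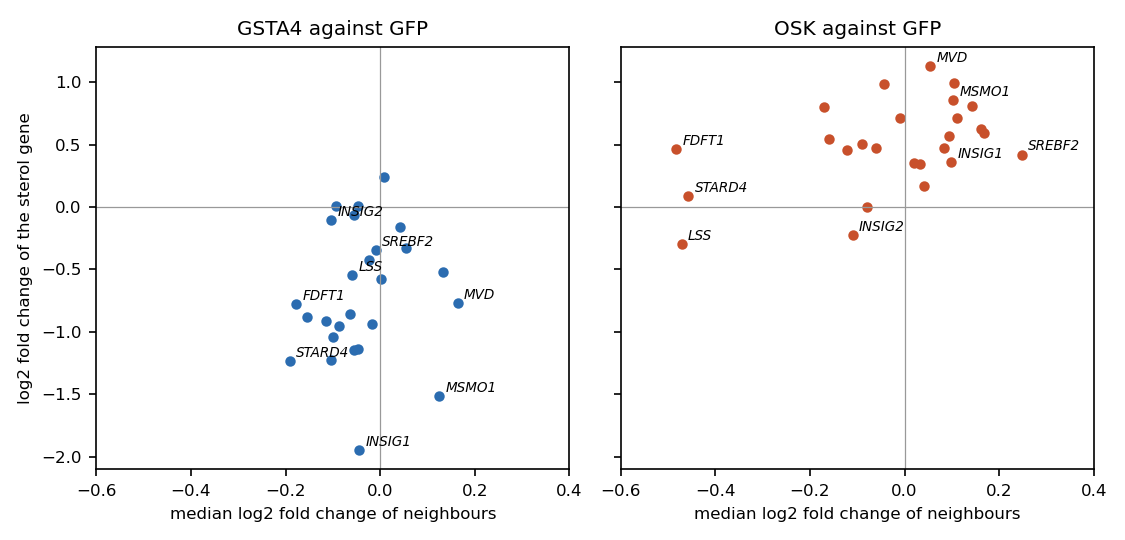
Log2 fold change of each of the 26 sterol genes (vertical axis) against the median log2 fold change of its nearest tested neighbours on the chromosome (horizontal axis), in GSTA4 against GFP (left) and OSK against GFP (right). Neighbour medians stay between -0.19 and 0.16 on the left, and on the right LSS, STARD4 and FDFT1 stand apart with neighbours near -0.47.

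The genes with a promoter in RefSeq were also counted with and without a CCAAT box. Of the 18 genes with the box, 16 fell in GSTA4 and 15 rose in OSK against GFP. Of the 5 without it (PMVK, CYP51A1, LBR, INSIG2 and SCAP), CYP51A1 alone fell in GSTA4 and 4 rose in OSK, all but INSIG2. Most genes thus rose in OSK both with and without the box. FDPS and GGPS1 have the box and did not pass the test in GSTA4. In the same comparisons, 14.6% of all genes tested were called lower in GSTA4 and 23.1% higher in OSK. Calls among all genes tested were not split by the box. The counts with and without the box are over few genes, and no test was made of them. The part of the box in these calls was not tested.

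The 26 genes also differed in how closely they followed their common course. Each gene's log2 CPM over the 12 libraries was correlated with the mean of the 26 standardised profiles, which includes the gene itself, and the libraries fall into 4 groups, so r is a description. It was highest for MSMO1 (0.99) and IDI1 (0.99). It was lowest for INSIG2 (-0.40), GGPS1 (0.06), LSS (0.45), PMVK (0.54) and LBR (0.73). The other 19 genes lay between 0.865 and 0.983. Among 11021 other genes with a mean of at least 5 CPM, those most like the common profile included ADAMTSL3 (r of 0.988), CYBRD1 (0.986), EXT2 (0.986), HPS5 (0.984), WBP1L (0.982), ENTPD7 (0.981) and the fatty acid desaturase FADS2 (0.981). HPS5 averaged 72.9 CPM in WT and 105.7 in GFP, and 41.5 in GSTA4 with 185 in OSK. FADS2 averaged 153, 216, 82.4 and 351 CPM in the same order. Ranked by Spearman's rho instead, 5 of the 10 genes most like the profile were shared.

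The genes around the pathway were taken as 4 lists, to be read against all genes tested, of which 14.7% were called higher and 14.6% lower in GSTA4 and 23.1% and 22.8% in OSK, both against GFP. Of 9 genes that process SREBP or destroy sterol enzymes, 1 rose and 2 fell in GSTA4, and 3 rose and 1 fell in OSK, with medians of 0.04 and 0.13. MBTPS1, the protease that makes the first cut of SREBP2 in the Golgi, rose in OSK by 0.50 (SE 0.0524, adjusted p 1.18e-07) and had a log2 difference of 0.10 (SE 0.0525, adjusted p 0.175) in GSTA4. MARCHF6, a ligase that marks squalene epoxidase for breakdown, ran the other way, up in GSTA4 by 0.25 (SE 0.0616, adjusted p 0.00382) and down in OSK by 0.21 (adjusted p 0.00904). ERLIN1, which helps to hold SREBP in the endoplasmic reticulum, fell in GSTA4 by 0.41 (adjusted p 5.92e-04). The control line differed from WT here too, with 2 of the 9 genes higher and 3 lower in GFP against WT. ERLIN1 was higher there by 0.31 (SE 0.0799, adjusted p 0.00842), and MARCHF6 differed by 0.15 (SE 0.0618, adjusted p 0.0986). Over all genes tested, 11% were called higher and 11.2% lower in GFP against WT.

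The branches that use prenyl diphosphates for other ends gave 0 calls among 9 genes in GSTA4 against GFP by edgeR and by DESeq2, where 2 were higher at an unadjusted p under 0.05, and 1 rose and 1 fell in OSK. PDSS1, for the side chain of ubiquinone, differed between OSK and GSTA4 by -1.29 (SE 0.312, adjusted p 0.00179), and FNTA, a farnesyltransferase subunit, fell in OSK by 0.26 (adjusted p 0.00615). Of 5 electron donors to the sterol oxidases, 4 rose in OSK against GFP. In GSTA4 against GFP only CYB5R3 passed the test, with a rise of 0.46 (SE 0.0642, adjusted p 1.47e-05). In GFP against WT, 3 of the 5 donors were lower and 0 higher. Against WT, 2 donors were higher and 1 lower in OSK, with a median of -0.10, where 22.7% of all genes tested were called in each direction. Among 9 genes of sterol uptake, transport and esterification, 1 rose and 1 fell in GSTA4, and 3 rose and 1 fell in OSK, both against GFP. GRAMD1A, which carries cholesterol from the plasma membrane to the endoplasmic reticulum, fell in OSK by 1.10 (adjusted p 3.22e-10), and GRAMD1B rose by 0.45 (SE 0.129, adjusted p 0.00694). LIPA, the lysosomal lipase that frees cholesterol from its esters, rose in OSK by 0.43 (SE 0.0871, adjusted p 3.90e-04).

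Some of these counts cannot be assigned to 1 gene with certainty. The counting notes give no strand setting, so reads on a gene and on a partner that overlaps it cannot be told apart. MVK overlaps MMAB, IDI1 overlaps WDR37, GGPS1 overlaps ARID4B, ACAT2 overlaps TCP1 and SOD2, and TMEM97 overlaps IFT20, each with many reads of its own. Over all 12 libraries together, ARID4B held 730% as many reads as GGPS1, and MMAB 183% as many as MVK. TCP1 held 405% and SOD2 370% as many as ACAT2. WDR37 held 102% as many as IDI1, and IFT20 70.7% as many as TMEM97. STARD4-AS1 held 35.8% as many reads as STARD4 over all 12 libraries together, and RUSC1-AS1 8.61% as many as FDPS. Processed copies of a sterol gene can also take its reads. HSD17B7P2 held 51 to 147 reads per library, the copies of CYP51A1 at most 22 and those of FDPS at most 6.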

How the data were processed

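Poly(A) RNA of 12 ARPE-19 libraries (3 each of WT, GFP, GSTA4 and OSK) was extracted with TRIzol and made into libraries with a NEBNext Ultra II kit, per the labels' protocols. The authors deposited raw read counts per gene. The submitters' processing notes name STAR 2.7.1a, featureCounts 1.6.2 and both human and mouse genome builds, without a role for each; the annotation release, strand setting and treatment of reads with several matches are not given in the sources used here. Of 60605 lines, those with no symbol held 0.485% to 0.822% of a library's reads and were left out. No molecular identifiers are stated.

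Counts were tested with edgeR 4.0.16 (with limma 3.58.1, in R 4.3.3): filterByExpr, TMM scaling, a quasi-likelihood fit of 1 mean per group over all 12 libraries with 8 residual degrees of freedom, and two-sided p-values adjusted by Benjamini-Hochberg over the 15179 genes of a contrast, with 0.05 as the threshold. The common biological coefficient of variation was 7.91%. SE is the log2 fold change over the root of F. CPM are reads per 1000000 of TMM-scaled library size. The test was checked on simulated counts with known changes.

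The members, gene lists and tests were chosen with earlier results of these data known. Values in every library are given for members called with a log2 fold change of at least 1 in size in any of 4 contrasts, and for those called against the median direction; up to 10 genes most like the members were named, and from other lists at most the 4 with the lowest adjusted p in OSK against GSTA4. SREBF2 by library, MVK, FDPS, GGPS1, LBR and SCAP by range, the pigment and fibroblast markers, and SREBF1, SCD and ACSS2 were also described. Some genes that these rules name are not reported here. Tried as alternatives were scaling by RLE or by library size alone, leaving the filter out or asking for a mean of 1 CPM, the 6 libraries compared, WT as control, the replicate number as a block, DESeq2 1.42.0, each library left out in turn, and Spearman or RLE profiles for likeness. Promoters came from RefSeq (GRCh38.p14), with 250 bases before each start searched on both strands.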

Additional observations from a re-analysis of the deposited data

How the results depend on the processing

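The counts of the 26 genes called kept their direction under every alternative run. Leaving out each library in turn gave 19 to 20 genes in GSTA4 against GFP, 21 to 24 in OSK against GFP, 5 to 10 in GFP against WT (5 without GFP replicate 3) and 24 each time in OSK against GSTA4. The replicate numbers did not pair the libraries. For this check each gene's group mean was subtracted from its log2 CPM, and the remaining deviations were correlated between libraries. Deviations of same-numbered libraries correlated by -0.0193 to 0.153, and in no contrast did every library correlate best with its own number. Before that subtraction, libraries of different groups correlated by 0.940 to 0.983. With the number as a block, the calls of all genes were 4734 in place of 4439 for GSTA4 against GFP, 7269 in place of 6962 for OSK against GFP, 3779 in place of 3369 for GFP against WT, and 7476 in place of 7262 for OSK against GSTA4. Those of the 26 genes were 20, 24, 10 and 24 in that order.

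Reversed signs were found only for differences near 0 that passed no test. GGPS1 in GSTA4 against GFP went to -0.00408 with library size alone, -0.0101 with a mean of at least 1 CPM and -0.00829 with the 6 libraries compared, and to -0.173 to 0.172 with each library left out. LBR there went to -0.107 against WT, -0.00818 with a mean of at least 1 CPM, -0.00681 with the 6 libraries, and -0.0164 to 0.0402 with each library left out. GGPS1 in OSK against GFP went to 0.0288 against WT, 0.0085 with RLE, 0.0188 with no filter, 0.0117 with DESeq2, and -0.0526 to 0.0926 with each library left out. In OSK against GSTA4, GGPS1 went to 0.00636 with RLE, 0.00703 with DESeq2, and -0.169 to 0.176 with each library left out. With each library left out, STARD4 in OSK against GFP ran from -0.00117 to 0.146. In GFP against WT, MVD ran from -0.00129 to 0.16, GGPS1 from -0.0646 to 0.0868 and INSIG2 from -0.085 to 0.00981. Ranked by Spearman's rho, 5 of the 10 genes most like the sterol profile were shared. The cause of these changes was not tested.

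The depth gave the 26 genes at least 80 reads in every library, and 3 libraries per group also limit the precision.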

Other observations

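Fatty acid synthesis, whose genes answer mainly to the related factor SREBP1, moved with sterol synthesis in part. Of 10 such genes, 5 fell and 2 rose in GSTA4 against GFP, where 14.6% of all genes tested were lower and 14.7% higher, and 7 rose and 0 fell in OSK against GFP, where 23.1% were higher. SCD, the desaturase that makes oleic acid, fell in GSTA4 by 1.64 on the log2 scale (adjusted p 1.28e-13) but in OSK differed by -0.00634 (SE 0.0633, adjusted p 0.944). The desaturases of polyunsaturated fatty acids, FADS1 and FADS2, fell in GSTA4 by 1.26 and 1.39 and rose in OSK by 0.40 and 0.70. FASN, fatty acid synthase, fell by 0.61 in GSTA4 and rose by 0.24 in OSK. SREBF1, which encodes SREBP1, went against SREBF2 in the GSTA4 line: it stood at 83.2 ± 3.20 CPM in WT and 107 ± 7.07 in GFP, against 134 ± 8.09 in GSTA4 and 136 ± 4.73 in OSK (SD, n = 3). It rose in GSTA4 by 0.33 (SE 0.0644, adjusted p 5.48e-04) and in OSK by 0.35 (SE 0.0644, adjusted p 1.62e-04). ACSS2, which activates acetate, was the other gene that rose in GSTA4, by 0.38 (SE 0.0718, adjusted p 4.09e-04).

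The nuclear receptor LXR is switched on by oxysterols and counters sterol accumulation. Of 5 LXR targets, 1 rose and 2 fell in GSTA4 against GFP, and 2 rose and 2 fell in OSK against GFP. Over all genes tested, 14.7% were called higher and 14.6% lower in GSTA4, and 23.1% and 22.8% in OSK. With 5 genes, such counts give no result about the list as a whole. SMPDL3A, a phosphodiesterase, rose in OSK by 1.71 (SE 0.197, adjusted p 4.43e-07). MYLIP, a ubiquitin ligase for lipoprotein receptors, fell by 0.42 in GSTA4 (adjusted p 0.0108) and by 0.67 in OSK (adjusted p 1.13e-04). Both comparisons use the same GFP libraries.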
